A study of Mus musculus with 6 samples.

Results

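The 10 genes studied here mark heat-producing fat cells and were followed through single nuclei of mouse white fat, namely Ucp1, Cidea, Cox8b, Elovl3, Ppargc1a, Kcnk3, Cox7a1, Prdm16, Otop1 and Esrrg. They were taken by symbol from the gene list of the deposited matrices, where each symbol occurs on 1 row, so the members are 10 of 56980 genes. Nuclei came from female C57BL/6J mice, either from subcutaneous (inguinal) adipose tissue (SAT) or from visceral (gonadal) adipose tissue (VAT). Of the 6 libraries, 4 are from SAT, with 2 at an age of 2 months and 2 at 24 months, and 2 are from VAT of the older age, with no genetic change and no treatment named in any group. The ages are those of the labels, and the study's own text gives a slightly later age for the old mice. By the study's methods both depots came from 2 mice of each age, but the labels do not tie a library number to a mouse, so SAT and VAT libraries of old mice may share animals and p-values measure the spread between these libraries. VAT of young mice was not analysed here.

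Thermogenic adipocytes, which are the brown cells of brown fat and the beige cells that appear within white fat, oxidise fatty acids in mitochondria and release the energy as heat. Ucp1 is the carrier that lets protons leak across the inner mitochondrial membrane. Sympathetic nerves release noradrenaline, which acts on β-adrenergic receptors, raises cyclic AMP and switches on lipolysis and the transcription of Ucp1 and Ppargc1a. Gonadal fat of mice is known as a depot that forms few beige cells, and inguinal fat as one that forms them more readily. A nucleus holds mostly new and unspliced transcripts, so levels here are those of nuclear RNA.

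The 10 genes are all protein coding in the GENCODE annotation of GRCm39, the build named for the files. Ucp1 lies at chr8:84016647-84025085 and Elovl3 at chr19:46119917-46124133. Cox8b lies at chr7:140477069-140480359, Cox7a1 at chr7:29883569-29885503, Otop1 at chr5:38433316-38461558 and Kcnk3 at chr5:30745243-30783689. The regulators span longer loci, namely Ppargc1a at chr5:51611592-51725068, Prdm16 at chr4:154400581-154721625 and Esrrg at chr1:187340988-187947082. Ucp1 and Otop1 overlap no other annotated gene. Cox8b overlaps Psmd13, and Elovl3 overlaps Pitx3, each on the opposite strand. Cidea, Kcnk3 and Prdm16 overlap long non-coding RNAs of the opposite strand. Ppargc1a shares its strand with 3 overlapping loci of the annotation, which are unconfirmed transcripts, and Esrrg with 2, an unconfirmed transcript and a pseudogene. Whether counting used strand is not given in the sources used here, so reads of overlapping genes may not be separable.

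The sequences just before the genes are shown for the mitochondrial carrier and for a respiratory chain subunit, because their transcripts were found in the same nuclei of VAT, and for the cAMP response element of Ppargc1a, the best known entry of the adrenergic signal. The windows hold the 250 bases before the outermost annotated start, were read from GRCm39 on the strand of the gene, and lie at chr8:84016397-84016646 (plus strand) and chr7:140480360-140480609 (minus strand).
Ucp1: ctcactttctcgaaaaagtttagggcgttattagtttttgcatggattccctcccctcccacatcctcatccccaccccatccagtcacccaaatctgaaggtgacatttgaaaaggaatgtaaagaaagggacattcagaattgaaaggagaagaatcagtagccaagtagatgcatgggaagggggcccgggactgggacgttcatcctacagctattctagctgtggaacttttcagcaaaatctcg
Cox8b: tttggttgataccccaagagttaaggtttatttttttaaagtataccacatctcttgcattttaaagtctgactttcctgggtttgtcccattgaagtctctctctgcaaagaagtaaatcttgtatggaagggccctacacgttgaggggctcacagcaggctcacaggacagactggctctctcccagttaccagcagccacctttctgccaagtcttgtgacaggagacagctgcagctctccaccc
Ppargc1a element: ctgccttggagTGACGTCAggagtttgtgc
Capitals mark the cAMP response element TGACGTCA, which lies 83 to 76 bases before the start of the canonical Ppargc1a transcript, within chr5:51711329-51711358 (minus strand). Of 21757 protein-coding genes, 1.70% hold this element in the 250 bases before the canonical start. The Ucp1 and Cox8b windows were searched on both strands for this element, for the nuclear receptor half-site AGGTCA and for the longer elements TCAAGGTCA and DR1, a direct repeat of the half-site with 1 base between the copies, which contain it, and none of them was found there. Among all windows before outermost starts, 13.9% hold the half-site, 0.547% hold TCAAGGTCA, 0.0410% hold DR1 and 1.31% hold the cAMP response element. The absence of a match says only that these letters are not in the window.

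The matrices hold raw counts of unique molecular identifiers (UMIs, 1 per captured RNA molecule), with 8061862 to 16226690 UMIs in a library. After the study's filters (more than 500 genes, more than 1000 UMIs and less than 15% mitochondrial UMIs), 27074 nuclei remained, of which 7246 fell into clusters named adipocyte-like from marker genes. The adipocyte nuclei numbered 891 and 506 in the libraries of 2 months (young SAT), 676 and 2156 in those of old SAT, and 2860 and 157 in old VAT (replicates 1 and 2). The 8 adipocyte markers were all detected in the adipocyte nuclei of every library. VAT replicate 2 stands apart, with few adipocyte nuclei among 5070, and held 1569 mesothelial and 460 ovary- or oviduct-like nuclei. Any pair of libraries shared 29 to 61 barcodes, at most 0.769% of the smaller library. A lower level in summed nuclei cannot be told apart from fewer nuclei of a type that hold the RNA.

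Together the 10 members gave few UMIs per nucleus. At least 1 UMI of any member was held by 34.0% (exact 95% binomial interval 30.9 to 37.2) and 38.9% (34.7 to 43.3) of adipocyte nuclei in SAT at 2 months. The share was 32.0% (28.5 to 35.6) and 32.1% (30.2 to 34.2) in old SAT, and 26.4% (24.8 to 28.0) and 17.2% (11.7 to 24.0) in VAT at 24 months. The young SAT libraries were thus at the top and the old VAT libraries at the bottom of the range. With each nucleus thinned to 1000 UMIs the shares were 21.4% and 26.7% in young SAT, 19.7% and 18.2% in old SAT, and 14.5% and 7.64% in old VAT. In immune nuclei, taken for comparison, the unthinned shares were 5.34% to 10.5% and the thinned ones 3.75% to 8.58%, at median depths of 1247 to 1447 UMIs against 1544 to 2270 in adipocyte nuclei. Over all immune nuclei Esrrg (2.20%) and Prdm16 (1.88%) had the largest shares. In VAT replicate 2 the thinned share of immune nuclei (8.58%) was not below that of adipocyte nuclei (7.64%, 4.01 to 13.0), so a member share above that of immune nuclei was not detectable there after thinning. Intervals and detection limits here cover counting error only.

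**Figure D1:**
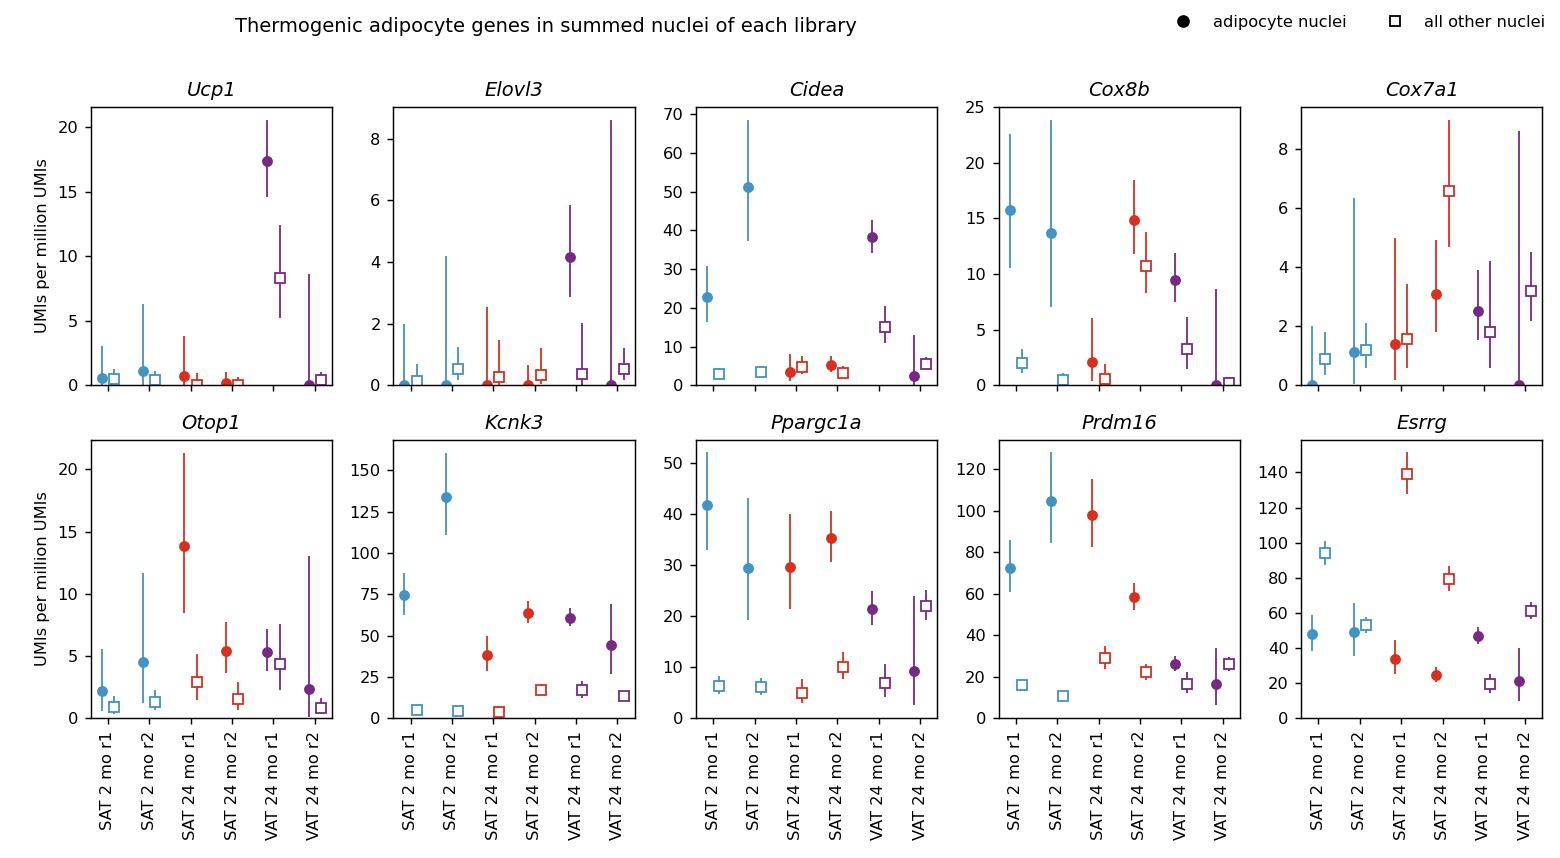
Level of each member in CPM (UMIs of the gene per 1000000 UMIs, linear axis) in the summed adipocyte nuclei (filled circles) and in all other nuclei (open squares) of each library, with exact 95% Poisson intervals; colours mark young SAT, old SAT and old VAT. Ucp1 and Elovl3 were highest in the adipocytes of VAT replicate 1, Cidea was high in young SAT and in VAT replicate 1, and Prdm16 was low in both VAT libraries.

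Ucp1, the uncoupling carrier itself, was nearly absent from subcutaneous adipocytes at both ages. Levels in CPM relate a gene's UMIs to all UMIs of the summed nuclei. Ucp1 had 1 UMI in each of the 4 SAT libraries, which is 0.542 and 1.14 CPM at 2 months and 0.691 and 0.181 CPM at 24 months. In VAT at 24 months it had 138 UMIs in 78 nuclei of replicate 1 and 0 UMIs in replicate 2. Replicate 1 was therefore at 17.4 CPM (exact 95% Poisson interval 14.6 to 20.6), above every SAT library. The 0 in replicate 2 rests on 157 nuclei and allows up to 7.00 CPM or 1.91% of nuclei. Its exact upper bounds are 8.61 CPM and 2.32% of nuclei. The latter overlaps the 2.73% (2.16 to 3.39) of replicate 1, while the CPM bound stays under its interval. The group means were 0.840 ± 0.420 and 0.436 ± 0.361 CPM in young and old SAT, and 8.70 ± 12.3 CPM in VAT (SD, n = 2), so that the VAT libraries differed from each other by more than the depots did. In immune nuclei of VAT replicate 1, at a median depth of 1343 UMIs against 2270 in its adipocyte nuclei, 3 of 250 held a Ucp1 UMI (1.20%, 0.248 to 3.47), and this interval overlaps that of the adipocyte nuclei. The other nuclei of VAT replicate 1 were at 8.28 CPM (5.25 to 12.4), above those of the 5 other libraries (0 to 0.50 CPM).

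Elovl3, an elongase of very long fatty acids that rises in cold-exposed brown fat, followed Ucp1. It had 33 UMIs in 18 adipocyte nuclei of VAT replicate 1 (4.16 CPM, interval 2.86 to 5.84) and 0 in the adipocyte nuclei of the 5 other libraries. The limits that a count of 0 allows were 0.542 to 3.41 CPM in the SAT libraries and 7.00 CPM in VAT replicate 2. The SAT libraries thus lay under the lower bound of VAT replicate 1 where the limit was under 2.86 CPM, which held for 3 of the 4.

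Cidea, a lipid droplet protein that is abundant in brown fat, had another pattern. In SAT adipocytes it had 42 and 45 UMIs at 2 months, or 22.8 and 51.2 CPM, and 5 and 29 UMIs at 24 months, or 3.45 and 5.24 CPM. In VAT adipocytes it had 303 UMIs (38.2 CPM, interval 34.0 to 42.8) in replicate 1 and 1 UMI (2.33 CPM) in replicate 2. Both young SAT libraries were above both old SAT libraries, whereas VAT replicate 1 lay between the young SAT libraries. VAT replicate 2 had the lowest value, but its interval (0.0591 to 13.0 CPM) covers both old SAT values, so it cannot be ranked under them.

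The smaller mitochondrial and membrane members were sparse. Cox8b, the muscle and brown fat form of a cytochrome c oxidase subunit, had 15.7 and 13.6 CPM in young SAT, 2.07 and 14.8 CPM in old SAT, and 9.45 and 0 CPM in VAT. The old SAT libraries differed from each other by more than the ages did. Cox7a1, another tissue-specific subunit of the same enzyme, had at most 20 UMIs in the adipocyte nuclei of any library (0 to 3.07 CPM). Otop1, a proton channel, had 2.17 and 4.55 CPM in young SAT, 13.8 and 5.42 CPM in old SAT, and 5.29 and 2.33 CPM in VAT. Kcnk3, a potassium leak channel of adipocyte membranes, had 74.3 and 134 CPM in young SAT, 38.0 and 63.8 CPM in old SAT, and 60.9 and 44.3 CPM in VAT. Young SAT was higher than old SAT in every library of Kcnk3.

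UMIs of the transcriptional regulators were counted in adipocyte nuclei of every library, though in VAT replicate 2 they were few (4 of Ppargc1a, 7 of Prdm16 and 9 of Esrrg). Ppargc1a, the co-activator of mitochondrial biogenesis, had 41.8 and 29.6 CPM in young SAT, 29.7 and 35.4 CPM in old SAT, and 21.4 and 9.33 CPM in VAT. Prdm16, a zinc finger protein that holds the brown and beige identity, had 72.7 and 105 CPM in young SAT, 98.1 and 58.6 CPM in old SAT, and 26.2 and 16.3 CPM in VAT. Both regulators were lower in each VAT library than in any SAT library, while young and old SAT overlapped. For Ppargc1a the counting intervals overlapped, with 18.3 to 24.9 CPM in VAT replicate 1 and 21.5 to 40.0 CPM in SAT 24 months replicate 1. Esrrg, an orphan nuclear receptor that drives oxidative genes, had 47.7 and 48.9 CPM in young SAT, 33.8 and 24.6 CPM in old SAT, and 46.8 and 21.0 CPM in VAT. In VAT replicate 2 the immune nuclei were at 7.5 CPM for Ppargc1a, 27.7 CPM for Prdm16 and 33.0 CPM for Esrrg, with intervals that overlap those of the adipocyte nuclei, and all nuclei other than adipocytes were at 22.1, 25.9 and 61.3 CPM.

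The first comparison asked which members changed with age in SAT adipocytes. Summed counts of adipocyte nuclei were fitted over the 6 libraries with edgeR's quasi-likelihood test, with Benjamini-Hochberg (BH) adjustment over all 12912 genes tested. Of the members, 6 passed the filter on low counts, and Ucp1, Elovl3, Cox7a1 and Otop1 did not. Cidea fell by 2.78 ± 0.71 (SE) on the log2 scale, a 6.87-fold lower level at 24 months (edgeR with BH, adjusted p = 0.0240). It was the only member called, where 13.9% of all genes tested were called in either direction and 7.40% as lower. Cidea and Kcnk3 had an unadjusted p under 0.05, as had 30.3% of all genes. The call was lost with DESeq2 (adjusted p = 0.155), with adipocytes taken by a marker gate (0.398), without SAT 2 months replicate 2 (0.184) and without nuclei that held 2 or more UMIs of the immune list (log2 difference -2.10, adjusted p = 0.0675, chosen after seeing the data), and the adjusted p over 20 alternatives was 1.27e-05 to 0.398. The log2 difference was -3.27 to -1.88 over the same alternatives. Summed immune markers moved with it, at 610 to 1036 CPM in young and 193 to 211 CPM in old SAT adipocytes with all 8 markers detected. Other summed marker lists also separated the ages in SAT adipocytes, with the mesothelial list at 20.6 to 27.3 CPM in young and 5.52 to 5.60 CPM in old SAT, the ovary or oviduct list at 46.1 to 67.1 and 18.7 to 19.4 CPM, the epithelial list at 60.7 to 101 and 34.5 to 50.3 CPM, and the smooth muscle or pericyte list at 49.9 to 76.2 and 96.7 to 110 CPM. The endothelial list (72.7 to 116 and 43.5 to 64.2 CPM), the Schwann or neural list (69.3 to 72.7 and 50.8 to 57.3 CPM), the neuron list (523 to 665 and 674 to 726 CPM) and the lipogenic list (6812 to 8495 and 2084 to 6604 CPM) did so too, and the adipocyte list did by a small margin, higher in old SAT. The median mitochondrial share over all kept nuclei was 1.72% and 0.918% in young and 3.49% and 2.91% in old SAT. The part of these other lists and of the mitochondrial share in the result was not tested.

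The other members with a fit did not pass the threshold. The log2 differences (24 months minus 2 months) were -0.82 ± 0.33 for Kcnk3 (edgeR with BH, adjusted p = 0.122), -0.60 ± 0.36 for Esrrg (0.295) and -0.49 ± 0.76 for Cox8b (0.713). Prdm16 differed by -0.02 ± 0.33 and Ppargc1a by 0.01 ± 0.36, with 95% intervals of -0.66 to 0.62 and -0.70 to 0.72. Scaling by library size moved the median of all genes from -0.0039 to -0.18 and the share of higher calls from 46.7% to 32.8%.

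**Figure D2:**
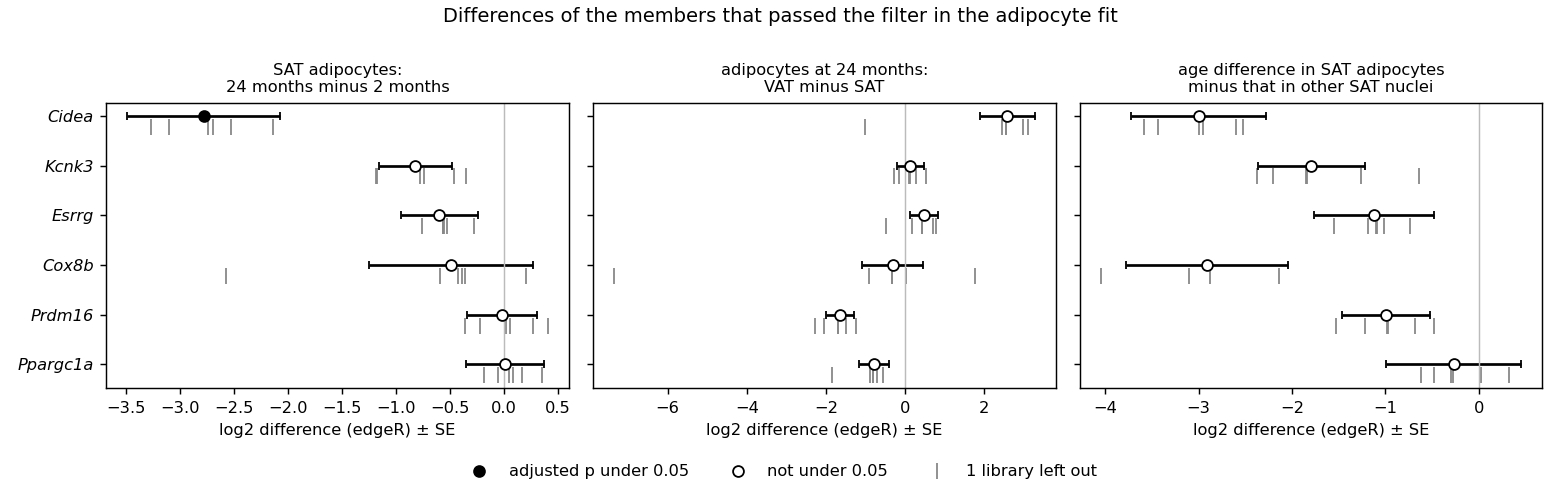
Log2 differences from edgeR for the 6 members that passed the filter in the adipocyte fit (circles, bars are SE), in 3 comparisons, with the value found when any 1 library was left out (ticks). Filled circles passed an adjusted p of 0.05, which holds for Cidea with age alone; leaving out VAT replicate 1 turned the depot difference of Cidea from 2.58 to -1.01.

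The second comparison asked which members differed between VAT and SAT adipocytes at 24 months. No member was called by edgeR with BH, 2 had an unadjusted p under 0.05, and DESeq2 called 0 members; among all genes 0.132% were called and 6.89% had an unadjusted p under 0.05. The log2 difference (VAT minus SAT) of Prdm16 was -1.65 ± 0.36, with both VAT libraries under both SAT libraries (edgeR with BH, adjusted p = 0.151). It passed the threshold in 3 of 20 alternatives, namely without SAT 24 months replicate 2 (-2.06), with no filter on low counts (-1.66) and without a sub-cluster of adipocytes rich in lipogenic genes (-2.18). Ppargc1a differed by -0.79 ± 0.37 (adjusted p = 0.726), Esrrg by 0.47 ± 0.36 (0.838), Kcnk3 by 0.13 ± 0.34 (0.971) and Cox8b by -0.31 ± 0.77 (0.969).

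The depot difference of Cidea was set by 1 library. It was 2.58 ± 0.69 over all libraries (edgeR with BH, adjusted p = 0.317), -1.01 without VAT replicate 1 (0.811) and 3.09 without VAT replicate 2 (0.0141), where the lone VAT library is assumed to vary like the other groups. Over 20 alternatives it was called in 3, namely that one, without SAT 24 months replicate 1 (0.0375) and with no filter on low counts (5.71e-05), and the adjusted p reached 1. Ucp1 passed the filter in 6 alternatives only, and since VAT replicate 1 holds 138 of its 142 adipocyte UMIs, a fitted difference would restate that library and is not given.

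Most nuclei with Ucp1 in VAT replicate 1 also held other members. Of the 78 adipocyte nuclei with Ucp1, 25 held 2 or more Ucp1 UMIs and the richest held 11, and 56 held a UMI of another member. For comparison, 754 of all 2860 adipocyte nuclei of that library (26.4%) held a UMI of any member, those with Ucp1 among them. Cidea was present in 40 of the 78 (51.3%, exact interval 39.7 to 62.8) and in 60 of the 2782 adipocyte nuclei without Ucp1 (2.16%, 1.65 to 2.77). Elovl3 was present in 12 of the 78 and in 6 of the 2782. The nuclei with Ucp1 were only a little deeper, with a median of 2468 UMIs against 2262.5. Thinned to 1000 UMIs a nucleus, Cidea was still held by 39.7% of the 78 and by 1.11% of the others.

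All 9 other members were higher in the nuclei with Ucp1, beyond the counting intervals. Cidea was at 777 CPM (665 to 903) against 17.2 (14.4 to 20.4), and Esrrg at 576 (480 to 686) against 31.8 (27.9 to 36.0). Kcnk3 was at 329 CPM against 53.3, and Prdm16 at 151 against 22.7. Cox8b was at 137 CPM against 5.83, Elovl3 at 123 against 0.778, and Otop1 at 119 against 2.07. Ppargc1a had the narrowest gap, with 54.9 CPM (28.3 to 95.8) against 20.5 (17.4 to 23.9), and Cox7a1 was at 41.1 CPM against 1.43. These nuclei come from 1 library, so the values describe that library and carry no test between conditions.

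**Figure D3:**
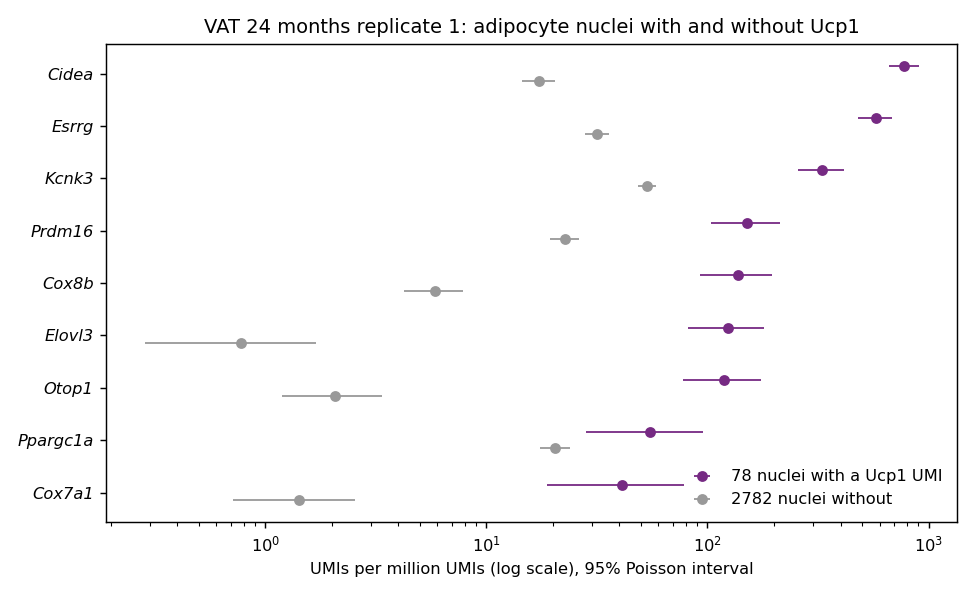
Level of the other 9 members (CPM, log axis) in the 78 adipocyte nuclei of VAT 24 months replicate 1 with a Ucp1 UMI (purple) and in the 2782 without one (grey), with exact 95% Poisson intervals. Every member was higher in the nuclei with Ucp1, from Cidea at 777 against 17.2 to Cox7a1 at 41.1 against 1.43.

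Genes of the wider thermogenic pathway were compared in the same way. Of 90 pathway genes with 20 or more UMIs in these nuclei, 39 were higher and 7 lower in the nuclei with Ucp1, with counting intervals apart, and 44 had overlapping intervals. These are 43.3% and 7.78%, beside 8.63% higher and 5.47% lower among all genes with as many UMIs. The genes named here were chosen after their values were seen. Among transcription factors Ppara, the nuclear receptor of fatty acid oxidation, was at 2459 CPM against 192, and Ebf2, which opens brown fat enhancers, at 453 against 235. Among genes of fatty acid use, Acsl5 was at 256 CPM against 19.2, Plin5 at 128 against 10.5, Fabp3 at 119 against 2.46 and Hadhb at 256 against 41.7. Acot11, a brown fat thioesterase, was at 283 CPM against 6.87, and Dio2, which activates thyroid hormone, at 54.9 against 1.81. The β-adrenergic receptors went opposite ways, with Adrb1 at 59.4 CPM against 8.43 and Adrb3, the receptor of mature adipocytes, at 1499 against 2249. Zfp423, which holds the white identity, was lower at 165 against 274, and so was Nrip1, a repressor of oxidative genes, at 329 against 634.

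All 8 adipocyte markers were detected in the nuclei with Ucp1, at levels of which some differed from those of the other adipocytes. Adipoq (425 CPM against 526), Plin1 (969 against 1000) and Lipe (1888 against 1787) had overlapping intervals. Adipor2 (1536 against 1191) and Pparg (3858 against 3091) were higher, and Plin4 (1147 against 2278), Acvr1c (663 against 1025) and Pde3b (1280 against 1508) were lower. Of the 8 muscle markers, Ckm, Myh1, Myh4 and Mylpf were at 0 UMIs in the nuclei with Ucp1, and Acta1 was at 32.0 CPM against 67.4 with overlapping intervals. Ttn, Neb and Tnnt3 are not reported here. In all adipocyte nuclei of that library 2 of the 8 were at 0 UMIs, so zeros in the fewer nuclei with Ucp1 say little. Ptprc, the pan-leukocyte marker, had 4 UMIs there (18.3 CPM, 4.98 to 46.8) against 8.94 CPM (6.96 to 11.3). The other immune markers of the list are not reported here.

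Nuclei with several of the sparse members were found mostly in that library. Over Ucp1, Cidea, Elovl3, Cox7a1, Cox8b and Otop1, which are the 6 members with the fewest UMIs in adipocytes, 62 of 2860 adipocyte nuclei of VAT replicate 1 held 2 or more of the 6 (2.17%, 1.67 to 2.77). The counts were 1 of 891 and 2 of 506 in young SAT, 1 of 676 and 5 of 2156 in old SAT, and 0 of 157 in VAT replicate 2, which allows up to 1.91%. Thinned to 1000 UMIs a nucleus, VAT replicate 1 held 35 such nuclei (1.22%) and each SAT library 1. In the other nuclei the counts for the 6 sparse members were 7 of 1574 in VAT replicate 1 (0.445%, 0.179 to 0.914), 8 of 2553 in SAT 24 months replicate 2 (0.313%, against 0.232% of its adipocyte nuclei), and 0 to 1 in each of the 4 other libraries. Over all 10 members the libraries lay closer together, with 2 or more of the 10 held by 6.96% (5.38 to 8.83) and 7.11% (5.03 to 9.71) of adipocyte nuclei in young SAT, 3.99% and 5.61% in old SAT, and 5.98% (5.14 to 6.91) and 3.18% in VAT. Nuclei with 4 or more of the 10 numbered 54 in VAT replicate 1 and 0 to 3 in each of the 5 other libraries. In VAT replicate 1 up to 9 of the 10 members were found in 1 adipocyte nucleus. Outside the adipocyte class, 5 nuclei of that library held 4 or more of the 10 members, 1 of them an immune nucleus with 7.

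**Figure D4:**
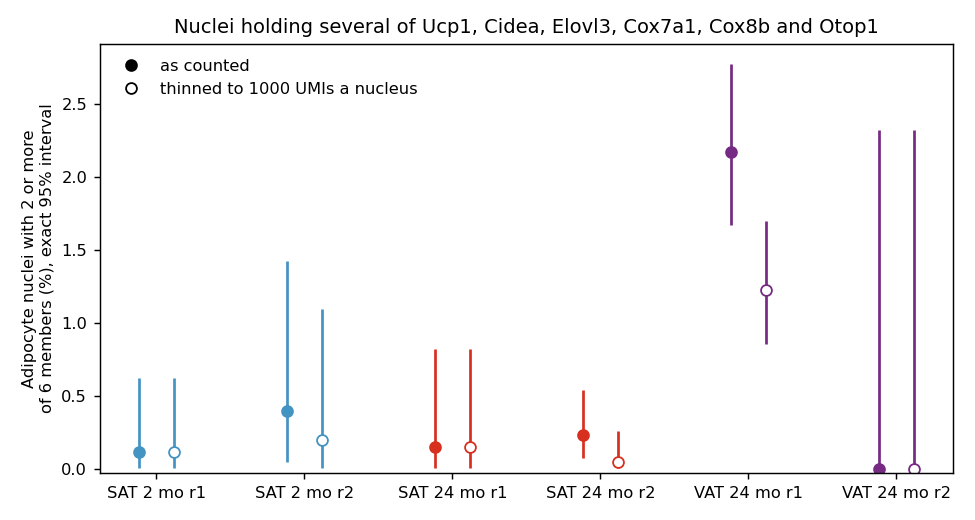
Share of adipocyte nuclei (%) that held 2 or more of Ucp1, Cidea, Elovl3, Cox7a1, Cox8b and Otop1 in each library, as counted (filled) and with each nucleus thinned to 1000 UMIs (open), with exact 95% binomial intervals. VAT 24 months replicate 1 was at 2.17% and 1.22%, the SAT libraries at 0.395% or less, and VAT replicate 2 at 0.

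Clusters built without the members or their pathway genes placed most of these nuclei together. An adipocyte cluster of 119 nuclei, led by Ppara, Gpd1 and Acaca, held 95 nuclei of VAT replicate 1 and 0 to 7 of each of the 5 other libraries. It was 3.32% of the adipocyte nuclei of VAT replicate 1 and 3.82% (6 nuclei) of VAT replicate 2. In replicate 1 it held 44 of the 78 nuclei with Ucp1 and 82 of the 138 Ucp1 UMIs, with Cidea at 1005 CPM and Esrrg at 835 CPM. The 6 nuclei of replicate 2 in it held 0 UMIs of all 10 members, but with 6391 UMIs in all this allows up to 469 CPM or 50% of nuclei for each member. A sub-cluster of adipocytes with 8 of 10 lipogenic markers raised, led by Acaca, Elovl6 and Fasn, held 50 of the 78. Outside that sub-cluster, Ucp1 in VAT replicate 1 adipocytes was at 5.77 CPM, against the 8.28 CPM of the other classes of the same library.

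The lipogenic sub-cluster held 20 of 42 and 28 of 45 Cidea UMIs of young SAT adipocytes, and 2 of 5 and 6 of 29 of old SAT. In young SAT it was 16.3% and 21.9% of adipocyte nuclei and in old SAT 6.21% and 10.0%. Cidea there was at 57.1 and 134 CPM in young SAT and 26.1 and 12.5 CPM in old SAT, against 14.7 and 25.4 CPM and 2.19 and 4.55 CPM in the remaining adipocytes of the same libraries. Outside the sub-cluster both young SAT libraries were above both old ones. Inside it the order was the same, but SAT 24 months replicate 1 had only 2 Cidea UMIs in 42 nuclei there (interval 3.17 to 94.4 CPM), which overlaps both young libraries. In young SAT 26 and 25 adipocyte nuclei held Cidea, and 0 of them held Ucp1. Without this sub-cluster Cidea fell by 2.23 on the log2 scale with age (edgeR with BH, adjusted p = 0.0372). The sub-cluster was defined from the same counts, so its levels are a description.

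Prdm16 and Ppargc1a were lower in VAT also among the adipocytes outside the lipogenic sub-cluster. There Prdm16 was at 71.6 and 83.6 CPM in young SAT, 87.5 and 52.7 CPM in old SAT, and 15.3 and 12.1 CPM in VAT. Ppargc1a was at 36.2 and 29.9 CPM in young SAT, 24.8 and 27.9 CPM in old SAT, and 15.9 and 7.26 CPM in VAT. For both genes each VAT library was under every SAT library, as in the whole adipocyte sums. Inside the sub-cluster VAT replicate 1 was at 148 CPM for Prdm16 and 82.3 CPM for Ppargc1a, within the range of the SAT libraries.

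The members were not equally restricted to adipocytes. Adipocyte nuclei gave 8.65% to 48.2% of the UMIs of a SAT library, 74.1% in VAT replicate 1 and 4.20% in VAT replicate 2, so the share of each member was set against this value within a library. Kcnk3 and Otop1 had a larger share of their UMIs in adipocyte nuclei than all genes together in 6 of 6 libraries, for Otop1 with 1 adipocyte UMI in VAT replicate 2, and Cox8b, Ppargc1a and Prdm16 in the 5 other than VAT replicate 2, as did Ucp1 with 1 adipocyte UMI in each SAT library. Cidea did so in 4 libraries, and Elovl3, Cox7a1 and Esrrg in 1, VAT replicate 1. In VAT replicate 1 adipocyte nuclei held 138 of 161 Ucp1 UMIs (85.7%, 79.3 to 90.7), 303 of 345 Cidea UMIs (87.8%, 83.9 to 91.1) and 371 of 425 Esrrg UMIs (87.3%, 83.8 to 90.3), all with intervals above that 74.1%. The log2 difference between adipocyte sums and the sums of the other nuclei, fitted with the library as a block, was 3.26 ± 0.45 for Kcnk3, 2.46 ± 0.59 for Cox8b and 2.16 ± 0.44 for Ppargc1a. It was 1.92 ± 0.41 for Prdm16, 1.90 ± 0.57 for Cidea, 1.83 ± 0.40 for Otop1 and -0.50 ± 0.38 for Esrrg, and Ucp1, Elovl3 and Cox7a1 did not pass the filter. The classes were made from the same nuclei, so these are descriptions without a p-value; by the same fit 6 of the 7 members and 21.8% of all genes would be called higher in adipocytes. Scaling by library size moved the median of all genes in this fit from -0.04 to -0.40.

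Esrrg had its highest means outside adipocytes, over 273 ovary- or oviduct-like and 1225 epithelial UMIs. Its mean over libraries was 215 ± 22.8 CPM (SD, n = 3) in ovary- or oviduct-like nuclei and 158 ± 97.5 CPM (n = 6) in epithelial nuclei, against 37.1 ± 12.4 CPM (n = 6) in adipocytes and 16.4 ± 8.75 CPM (n = 6) in immune nuclei. The epithelial range was 17.7 to 290 CPM and reached below the adipocyte range. Prdm16 was at 62.7 ± 36.3 CPM in adipocytes and 62.6 ± 27.4 CPM in endothelial nuclei (n = 6 each), which did not differ beyond their spread. Cox8b reached endothelial nuclei in SAT 24 months replicate 2, where 52 UMIs (31.3 CPM) accounted for most of the 54 endothelial UMIs of the series. Ppargc1a had 121 UMIs in mesothelial nuclei, at up to 30.8 CPM. Means above those of adipocytes also came from few UMIs, as for Ucp1 in epithelial nuclei (8.54 CPM from 3 UMIs, against 3.32), Elovl3 in immune nuclei (1.09 CPM from 9 UMIs, against 0.693), and Cox8b and Ppargc1a in skeletal muscle nuclei (42.9 and 53.6 CPM from 4 and 5 UMIs, against 9.29 and 27.9). For Cidea the ovary- or oviduct-like, skeletal muscle and epithelial means (22.2 to 26.1 CPM, 3 to 19 UMIs) were above the 20.5 CPM of adipocytes, and for Cox7a1 8 of the other classes were above the 1.35 CPM of adipocytes. For Kcnk3, adipocytes came first at 69.2 ± 34.5 CPM, followed by ovary- or oviduct-like nuclei at 33.9 ± 37.7 CPM (n = 3) and endothelial nuclei at 19.8 ± 15.3 CPM.

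**Figure D5:**
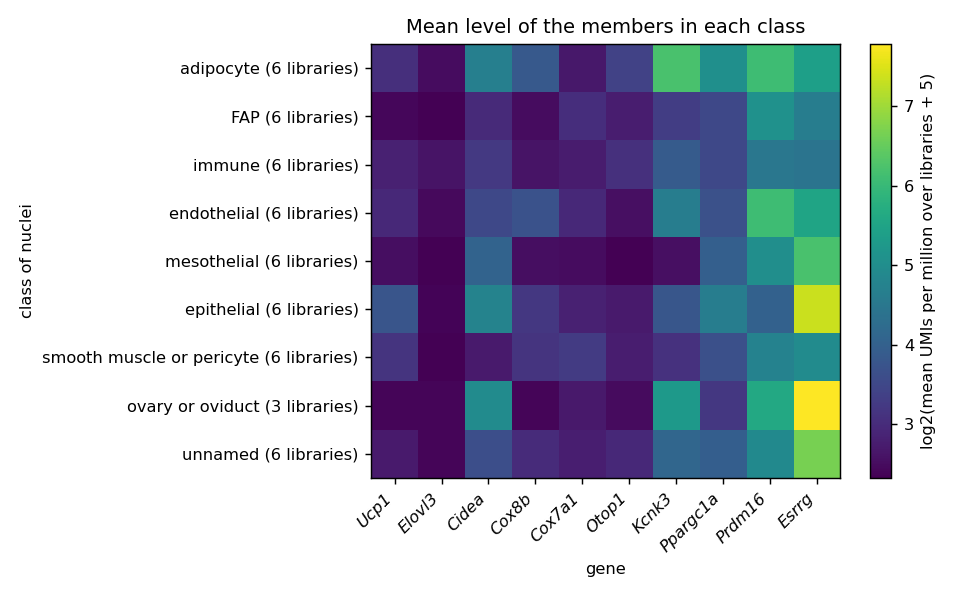
Mean level of each member over libraries, as log2(CPM + 5), by class of nuclei; only library sums of 20 or more nuclei were used, and the number of libraries is given beside each class. Kcnk3 and Prdm16 were high in adipocytes, Prdm16 was as high in endothelial nuclei, and Esrrg was highest in ovary- or oviduct-like and epithelial nuclei.

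The third comparison asked whether the age difference of a member in SAT adipocytes differed from that in the other SAT nuclei. No member was called among the 7 fitted (edgeR with BH over 16553 genes); 3 had an unadjusted p under 0.05, DESeq2 called 1, and of all genes 0.652% were called and 17.2% had an unadjusted p under 0.05. The difference of differences was -3.00 ± 0.72 for Cidea (adjusted p = 0.10), -2.91 ± 0.86 for Cox8b (0.157) and -1.80 ± 0.57 for Kcnk3 (0.18). In other nuclei Cidea was at 3.00 and 3.44 CPM in young SAT and 4.72 and 3.19 CPM in old SAT, where the ages overlapped. Cox8b was there at 2.00 and 0.431 CPM in young SAT and 0.524 and 10.8 CPM in old SAT. Kcnk3 was at 5.00 and 4.52 CPM in young and 3.41 and 17.0 CPM in old SAT. For both, the other nuclei of SAT 24 months replicate 2 were the highest of the SAT libraries. Prdm16 differed by -0.99 ± 0.47, Esrrg by -1.12 ± 0.65, Ppargc1a by -0.27 ± 0.73 and Otop1 by 0.66 ± 0.84, with adjusted p of 0.322 to 0.882.

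Of 118 other genes of the thermogenic pathway, 87 were tested with age in SAT adipocytes and 16 were called, 5 higher and 11 lower at 24 months, where 13.9% of all genes tested were called and 7.40% as lower, with a median log2 difference of -0.11 beside -0.0039 over all genes. The count was 1 with the marker gate, 4 without SAT 2 months replicate 2, 7 without SAT 2 months replicate 1 and 11 to 21 in the other alternatives. Genes among the 12 with the smallest adjusted p are named. Irf4, a factor induced by cyclic AMP that acts with Ppargc1a on Ucp1 and is also a lymphocyte gene, was at 255 and 581 CPM in young SAT and 10.4 and 6.51 CPM in old SAT. It fell by 5.58 ± 0.44 on the log2 scale (edgeR with BH, adjusted p = 4.17e-05), and its age difference in adipocytes minus that in other nuclei was -3.81 ± 0.46 (0.0175). Mecom, the paralogue of Prdm16, fell by 2.08 ± 0.32 and differed from other nuclei in its age difference by -3.60 ± 0.47 (0.0199). In other nuclei Irf4 was at 82.1 and 100 CPM in young SAT and 27.8 and 29.4 CPM in old SAT. There Mecom was at 40.7 and 28.2 CPM in young SAT and higher, at 84.9 and 107 CPM, in old SAT. The fall of Mecom in adipocytes ran from -2.25 to 0.10 over 20 alternatives. The difference in age effect was called in 11 of 15 alternatives for Irf4 and in 10 of 15 for Mecom, and for neither with the marker gate. Pank1 fell by 2.34, Plin5 by 2.25, Ppara by 1.91, Ebf2 by 1.2, Slc25a20 by 1.14 and Rxra by 0.93. Ryr2 rose by 2.06, Pde4d, which breaks down cyclic AMP, by 1.49 and Rb1 by 0.84. The named genes after Irf4 had adjusted p of 0.00171 to 0.0365. Over 20 alternatives the age call held in 9 for Rxra, in 12 for Rb1, in 15 each for Ebf2, Plin5 and Slc25a20, and in 17 to 20 for the other genes named. The log2 difference of Rxra shrank to -0.14 and that of Ebf2 to -0.41 at the least. The summed immune markers given beside Cidea were also lower in old SAT, and without the nuclei that held 2 or more immune UMIs Irf4 fell by 5.50 ± 0.47 (adjusted p = 9.85e-05). Of the genes named here with age, Rxra alone lost its call there (-0.95, adjusted p = 0.0501).

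By role, and beside the same 13.9% of all genes, 7 of 21 transcription factors and co-regulators were called with age (3 higher, 4 lower), 3 of 14 genes of uncoupling and substrate cycling (1 and 2), and 2 of 13 of the adrenergic signal. Of the related paralogues 2 of 13 were called, of fatty acid supply and oxidation 1 of 18, and of the beige or brown marker genes 1 of 5, each lower, and 0 of 4 of the secreted factors (2 of the 4 with an unadjusted p under 0.05). In adipocytes against the other nuclei, described without a test, 42 of the 96 pathway genes fitted would be called higher and 19 lower, where 21.8% of all genes would be called higher and 25.5% lower. The 12 with the smallest adjusted p are named with their log2 difference. Of these, 3 were lower in adipocytes, namely Epsti1 (-4.61 ± 0.31) and Cited1 (-3.80 ± 0.28), both listed as beige or brown markers, and Ucp2, a Ucp1 paralogue of immune cells (-2.71 ± 0.27). Over 15 alternatives Cited1 ran from -4.19 to 0.51 and so changed sign, while Epsti1 ran from -4.97 to -1.775 and Ucp2 from -3.06 to -0.71. The 9 higher ones were the secreted factors Nrg4 (4.02 ± 0.39) and Vegfa (3.48), the signalling genes Prkar2b (3.68) and Pde3b (3.44), the Ucp1 paralogue Ucp3 (3.39), the nuclear receptor Rxrg (2.87), the co-regulators Nrip1 (2.30) and Ppargc1b (2.01), and Acadm (1.79), a dehydrogenase of fatty acid oxidation. Between the depots 1 of the 87 was called, beside 0.132% of all genes tested, namely Lhx8, a brown fat marker, which was lower in VAT by 5.12 ± 0.65 (edgeR with BH, adjusted p = 0.0197). Its levels were 26.9 and 21.7 CPM in old SAT and 0.504 and 2.33 CPM in VAT, so that the depots did not overlap. The call was lost without VAT replicate 1 (-3.37, adjusted p = 0.314) and with the marker gate (-4.24, 0.253), and held in the 18 other alternatives. Marker lists of other cell types also separated the depots in these adipocyte sums, with the mesothelial list at 45.4 to 159 CPM in VAT and 5.52 to 5.60 CPM in old SAT, the skeletal muscle list at 72.3 to 90.3 and 46.3 to 56.4 CPM, the FAP (fibro-adipogenic progenitor) list at 1782 to 1824 and 2046 to 4654 CPM, and the neuron list at 815 to 1045 and 674 to 726 CPM. The smooth muscle or pericyte list (77.0 to 95.3 and 96.7 to 110 CPM) did so too, and the adipocyte list did by a small margin, lower in VAT. The part of these lists in the depot differences of Lhx8, Prdm16 and Ppargc1a was not tested.

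Across 47 sums of class by library, with 17949 candidate genes, the genes most like each member in log2(CPM + 5) were found by Pearson's r, as a description over sums that share libraries. They were Mrap (0.80), Smkr-ps (0.79) and Adipor2 (0.78) for Kcnk3, and Hspb6 (0.74), Gm37829 (0.70) and Rxrg (0.69) for Cox8b. For Esrrg they were 0610040J01Rik (0.72), Cd24a (0.70) and Arhgef38 (0.67), and for Prdm16 Gm29506 (0.71), Pbld2 (0.66) and Myrip (0.66). For Ppargc1a they were Zfp787 (0.69), Nrbf2 (0.67) and ENSMUSG00000120906 (0.65), for Otop1 Gm45218 (0.73), Gm45199 (0.66) and H3c15 (0.66), for Cidea Elavl2 (0.64), Acly (0.60) and D3Ertd751e (0.57), for Ucp1 Gata5 (0.67), BC035947 (0.64) and AI854703 (0.64), and for Cox7a1 Gm15179 (0.63), Rab7 (0.61) and Casq1 (0.61).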

How the data were processed

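Single-nucleus RNA sequencing was done by the authors on SAT and VAT nuclei (Singleron GEXSCOPE), and reads were aligned and counted with CeleScope against GRCm39. In the deposited files, values are UMI counts of each gene in each barcode, not normalized, for 6 libraries. The annotation release and CeleScope version are not given in the sources used here. From 50859 barcodes, 27074 nuclei passed the study's filters (more than 500 genes, more than 1000 UMIs, less than 15% mitochondrial UMIs). Scrublet marked 36 nuclei (0.133%), which is too few for a working caller, so doublets were not removed.

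Counts were log-normalized, and 1000 variable genes (the members and pathway genes left out), 30 principal components, Harmony over libraries, 20 neighbours and Leiden clustering at resolution 2 gave 41 clusters, which were named from marker lists (4495 nuclei stayed unnamed). Adipocytes were sub-clustered at resolution 1. UMIs were summed per library and class and fitted with edgeR 4.0.16 (TMM scaling, filterByExpr, quasi-likelihood test, two-sided, R 4.3.3), and an adjusted p under 0.05 (Benjamini-Hochberg) was called. DESeq2 1.42.0 was an alternative. Intervals are exact 95% binomial or Poisson intervals, and the limit of a count of 0 is 3 counts. All 10 members are described whatever their values. Of the pathway, genes called in a comparison are named, up to the 12 with the smallest adjusted p (1 of them is not reported here), and for each member with 100 or more UMIs the 3 most like genes. The members and gene lists were chosen with earlier results of these data known. The fits were tested on simulated data. Of the 118 pathway genes, 117 were matched in the matrices.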

Additional observations from a re-analysis of the deposited data

How the results depend on the processing

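Of 440 values recomputed under alternatives, 379 kept their direction and side of the threshold, 38 changed sign, 14 newly passed and 9 no longer passed. The number of members called with age (1, beside 13.9% of all genes) was 0 with DESeq2 (10.2%), with the marker gate (0.0939%) and without nuclei holding immune UMIs (12.4%, chosen after seeing the data). The number called between depots (0, beside 0.132%) was 1 without the lipogenic sub-cluster (0.151%) and 4 with no filter on low counts (0.462%). These 4 include Ucp1 and Elovl3, whose adipocyte UMIs lay nearly all in VAT replicate 1, so their calls restate that library. For the difference in age effect (0, beside 0.652%) the number was 1 with DESeq2 (1.74%), 2 with all barcodes under the mitochondrial limit (1.46%) and 1 with no filter (1.59%). The counts also changed when single libraries were left out. The mean share of adipocyte nuclei with a member over libraries was 30.1% and, thinned, 18.0%. The causes were not tested.

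In this paragraph, ranges are those found when single libraries were left out. With age, the log2 difference of Prdm16 turned to 0.013 with DESeq2, 0.11 with all barcodes, 0.28 thinned, 0.51 with the marker gate, 0.013 without batch correction, 0.23 with no filter and 0.16 without immune UMIs (-0.36 to 0.41). Ppargc1a turned to -0.016 with all barcodes, -0.16 with library-size scaling, -0.18 without the lipogenic sub-cluster, -0.00050 with members among the variable genes and -0.0038 without the Ppara-led cluster (chosen after seeing the data) (-0.18 to 0.35). Cox8b turned to 0.11 without the lipogenic sub-cluster and 0.47 with the marker gate (-2.58 to 0.21). Between depots, Esrrg turned to -0.24 without the lipogenic sub-cluster, -0.034 with the marker gate and -0.064 without the Ppara-led cluster (-0.49 to 0.77), Kcnk3 to -0.063 without the lipogenic sub-cluster (-0.28 to 0.51) and Cox8b to 0.079 thinned (-7.36 to 1.77). Cidea ranged from -1.01 to 3.09. With the marker gate, Esrrg in adipocytes against other nuclei turned to 0.16, and the difference in age effect to 0.30 for Ppargc1a and 0.18 for Kcnk3. Without immune UMIs that of Ppargc1a was 0.17 (-0.62 to 0.32).

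Same-numbered libraries deviated with r of -0.094 (young and old SAT), 0.0088 (young SAT and VAT) and 0.18 (old SAT and VAT); 2 libraries a group cannot show whether same-numbered libraries share a mouse. With the replicate number as a block, 2143 genes were called with age in place of 1795 and 34 between depots in place of 17, with 1 and 0 members called. The Cidea age difference was -2.76 with the block. The marker gate called 15 genes with age. DESeq2 called 35 genes between depots and 288 for the difference in age effect. VAT replicate 2, with 157 adipocyte nuclei, limits what can be seen of Ucp1 and Elovl3 in VAT.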
